A study of Mus musculus with 6 samples.

Results

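The 9 genes described here encode the 3 transforming growth factor β (TGF-β) ligands, Tgfb1, Tgfb2 and Tgfb3, the 4 latent TGF-β binding proteins, Ltbp1, Ltbp2, Ltbp3 and Ltbp4, and the type II and type III receptors, Tgfbr2 and Tgfbr3. They were chosen by symbol from the 24411 genes of a count table, and all 9 were among the 12892 genes that passed the filter on low counts. The RNA came from extensor digitorum longus (EDL), a muscle of the lower hindlimb made mainly of fast-twitch fibres. The donors were 3 mAktDKO and 3 control floxed animals, all 50 weeks old and labelled C57BL/6J. In mAktDKO mice the floxed Akt1 and Akt2 alleles were combined with Mlc1f-Cre, whereas control floxed mice carried the floxed alleles without Cre. Mlc1f-Cre is a knock-in that is active mainly in fast-twitch myofibres, and Akt1 and Akt2 were not measured by cell type here. The study used male mice unless it stated otherwise. A mouse with Cre but no floxed allele was not among these samples. mAktDKO mice are named here by the numbers 1 to 3 and control mice by the numbers 2 to 4, as in the deposited table.

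A TGF-β ligand is made as a precursor that is cut into a mature factor and a prodomain, and both stay bound to each other in a latent complex. In many cells the prodomain is linked by disulfide bonds to a latent TGF-β binding protein, which carries the complex to fibrillin and fibronectin in the extracellular matrix. Integrins, thrombospondin and proteases release the mature factor. The free ligand binds the type II receptor kinase, which recruits and phosphorylates the type I receptor, and that receptor in turn phosphorylates Smad2 and Smad3. The type III receptor, betaglycan, presents the ligand and is most important for TGF-β2. In skeletal muscle, TGF-β signalling is best known for driving matrix production by fibroblasts and fibro-adipogenic progenitors and for restraining myoblast differentiation.

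The 3 ligands come from separate genes, and the ends of their coding sequences, within the mature factor, show how alike they are. The last 60 coding bases, stop codon included, lie within 1 exon in each gene and are shown 5′ to 3′ on the coding strand (GENCODE vM21, GRCm38/mm10), with capitals at the 39 positions where all 3 genes have the same base. They are at chr7:25704883-25704942 on the plus strand (Tgfb1), chr1:186625448-186625507 on the minus strand (Tgfb2) and chr12:86057780-86057839 on the minus strand (Tgfb3).
Tgfb1: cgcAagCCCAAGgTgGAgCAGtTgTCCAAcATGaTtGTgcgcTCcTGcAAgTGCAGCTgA
Tgfb2: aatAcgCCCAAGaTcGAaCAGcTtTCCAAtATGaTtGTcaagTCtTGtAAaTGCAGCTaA
Tgfb3: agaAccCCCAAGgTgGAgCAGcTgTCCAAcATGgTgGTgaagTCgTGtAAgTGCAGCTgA
Tgfb1 matched Tgfb2 at 42 of 60 positions, Tgfb1 matched Tgfb3 at 48 and Tgfb2 matched Tgfb3 at 46. Over the whole transcripts the longest run of identical bases was 12 between Tgfb1 and Tgfb2 and 15 between Tgfb3 and either of the others. Among the 4 binding proteins it was at most 24 bases. These runs are shorter than the 37 bases of a read, so reads of the ligands, or of the binding proteins, could be told apart by sequence. Of the 37-base stretches of the transcript used for Tgfbr3, 4.346% were shared on the same strand with an overlapping predicted gene, Gm43422, and the share was 1.107% or less for the other 8 genes. On the opposite strand, 10.812% of the stretches of Ltbp2, 9.531% of those of Tgfb3 and 2.833% of those of Ltbp3 lay in another gene. The libraries were strand-specific, but the strand setting of the counting is not given in the sources used here.

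Total counts were 13738795 to 15445523 per mouse, and 3 counts, the smallest level taken as measurable, corresponded to 0.194 to 0.218 CPM (counts relative to the library total, with totals scaled by the TMM method of edgeR). This floor covers counting error only. Of the 12892 genes, 3 (0.0233%) were called at an adjusted p under 0.01 by the quasi-likelihood test of edgeR after Benjamini-Hochberg adjustment, and 152 (1.18%) had an adjusted p under 0.05. Akt2 was the clearest difference, with 51.3, 49.1 and 52.7 CPM in mAktDKO mice and 172, 133 and 143 CPM in control mice (log2 fold change -1.55, edgeR adjusted p = 0.000923). Akt1 had 58.9, 56.8 and 51.4 CPM against 66.4, 65.5 and 66.5 CPM, and did not pass the threshold (log2 fold change -0.25, edgeR adjusted p = 0.115). Myh4, the myosin of the fastest fibres, was at 47000 to 55600 CPM and Myh7, the slow myosin, at 168 to 637 CPM, as in a fast-twitch muscle. Control mouse 2 stood apart from all other mice. The chi-square of its counts per degree of freedom was 51.4 to 69.8 against the mAktDKO mice and 27.7 and 26.9 against the other control mice, whereas control mice 3 and 4 differed by 10.8. The log2 fold changes of the 9 genes and the medians of gene lists are therefore given with and without control mouse 2.

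None of the 9 genes passed the threshold, and none had an adjusted p under 0.05 (edgeR). Without control mouse 2 none passed either, and 0.0609% of all tested genes did. The transcripts of all 3 ligands had higher mean levels in mAktDKO mice, with fold changes of 1.26 to 1.28, while the mean levels of Ltbp3 and Ltbp4 were slightly lower. In bulk tissue, more RNA per cell and more cells of a type cannot be told apart. The smallest adjusted p belonged to Tgfb2. In 7 of 9 genes the log2 fold change was above 0, against 52.5% of all tested genes, and the median of the 9 was 0.19, against 0.017 over all tested genes. Without control mouse 2 these medians were 0.12 and 0.016. At an unadjusted p under 0.05 there were 2 of the 9, Tgfb2 and Tgfb3, both higher in mAktDKO mice, and 11.4% of all tested genes met the same criterion in that direction and 13.1% in the other. The groups did not overlap for 2 of the 9, Tgfb1 and Tgfb2, again higher in mAktDKO mice, with a background of 14.6% of all tested genes, or 19.2% without control mouse 2. The 9 genes were measured in the same mice, so these are not counts of independent genes, and they were given no test.

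**Figure D1:**
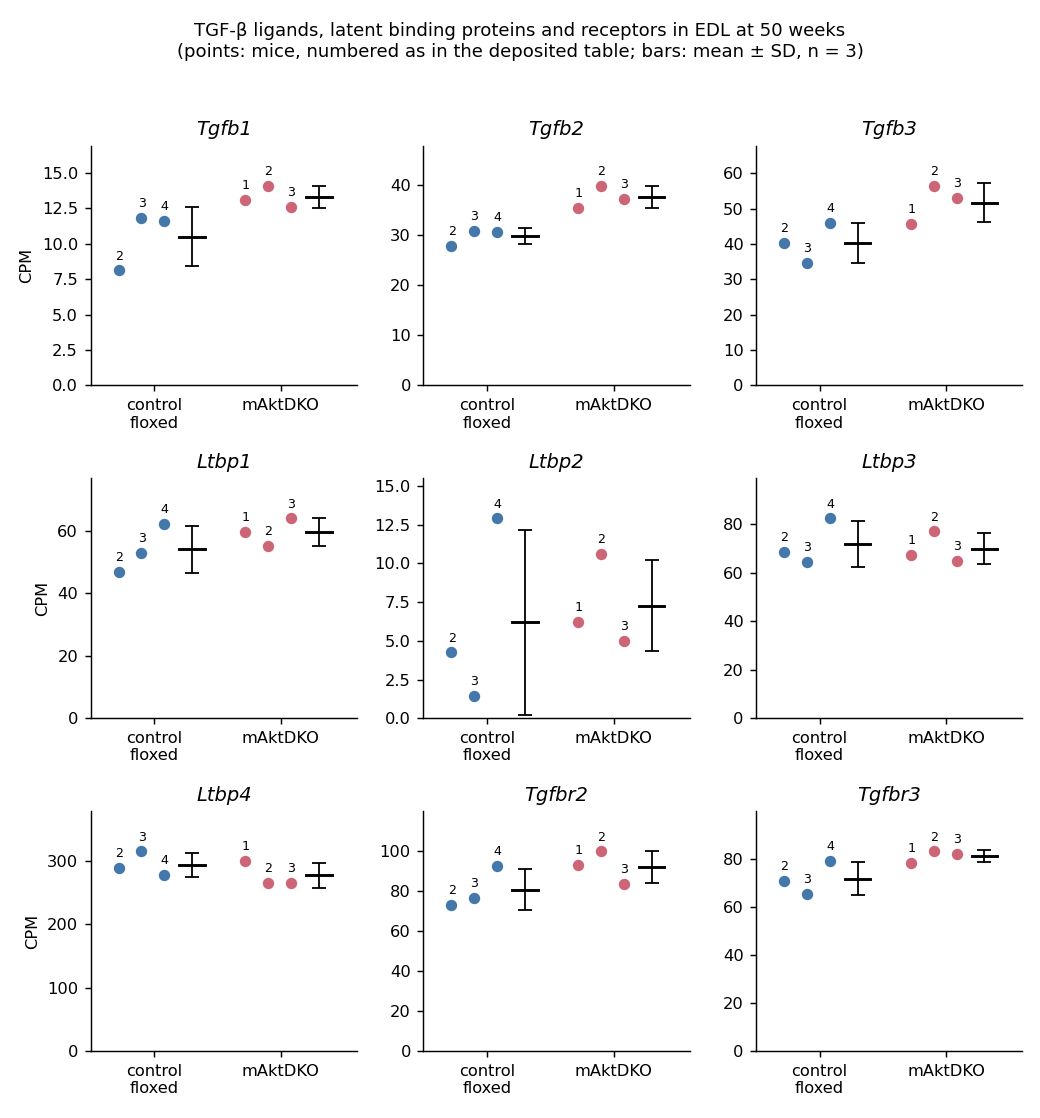
CPM of each gene (vertical axes, from 0) in every mouse, with control floxed mice in blue and mAktDKO mice in red, numbered as in the deposited table, and the mean and SD of 3 mice beside the points. The groups do not overlap for Tgfb1 and Tgfb2, overlap narrowly for Tgfb3 (mAktDKO mouse 1 at 45.6 and control mouse 4 at 46.0 CPM), and overlap widely for Ltbp2, where control mouse 4 has 12.9 CPM and control mouse 3 has 1.46 CPM.

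Tgfb2 encodes the ligand that depends most on betaglycan for binding. It is on chromosome 1 (mm10, 186622792 to 186705989, minus strand) and has 7 exons. Its levels were 35.5, 39.9 and 37.2 CPM in mAktDKO mice 1 to 3 and 27.9, 30.8 and 30.7 CPM in control mice 2 to 4. Every mAktDKO mouse was above every control mouse. The means were 37.5 ± 2.22 and 29.8 ± 1.64 CPM (SD, n = 3 each), a fold change of 1.26 with a 95% interval of 1.10 to 1.45. The log2 fold change was 0.33 (standard error 0.088, edgeR adjusted p = 0.0778), and 0.29 without control mouse 2 (adjusted p = 0.127). DESeq2 gave 0.32 with an adjusted p of 0.0827. By its unadjusted p, Tgfb2 was gene 689 of 12892.

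Tgfb3 encodes the ligand with the highest transcript level per length of the 3 (given below), and lies on chromosome 12 (86056745 to 86079041, minus strand). It had 45.6, 56.5 and 52.9 CPM in mAktDKO mice and 40.3, 34.7 and 46.0 CPM in control mice. The groups overlapped by a narrow margin, since mAktDKO mouse 1 was just under control mouse 4. The means were 51.7 ± 5.58 and 40.4 ± 5.66 CPM (SD, n = 3 each), a fold change of 1.28 with a 95% interval of 1.06 to 1.55. This fold is a log2 difference of 0.36 (standard error 0.12, edgeR adjusted p = 0.131), which kept the same value without control mouse 2 (adjusted p = 0.194).

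Tgfb1 encodes the ligand best known for fibrosis and for immune regulation. It is on chromosome 7 (25687002 to 25705077, plus strand) and was the lowest of the ligands in CPM. mAktDKO mice had 13.1, 14.1 and 12.6 CPM, and control mice had 8.11, 11.8 and 11.6 CPM. The groups did not overlap, but control mouse 2 was far below all the others. The counts behind these levels were between 116 and 236. The means were 13.3 ± 0.782 and 10.5 ± 2.07 CPM (SD, n = 3 each), a fold change of 1.27 with a 95% interval of 0.998 to 1.61. Its log2 fold change of 0.34 (standard error 0.15, edgeR adjusted p = 0.205) became 0.18 without control mouse 2 (adjusted p = 0.403).

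The promoters of the pair of ligand genes whose groups did not overlap are printed to show how different their upstream sequence is. These are the 250 bases before the start of each gene, on the strand of the gene, from RefSeq (GRCm38.p6), at chr7:25686752-25687001 on the plus strand (Tgfb1) and chr1:186705990-186706239 on the minus strand (Tgfb2). Capitals mark matches on either strand to the letters searched, which were the FoxO motif GTAAACA, the cyclic AMP response element TGACGTCA, the AP-1 motif TGANTCA, the Sp1 motif GGGCGG, the Smad motif CAGACA and the core of the TATA box, TATAAA. Matches to different motifs did not overlap in these windows.
Tgfb1: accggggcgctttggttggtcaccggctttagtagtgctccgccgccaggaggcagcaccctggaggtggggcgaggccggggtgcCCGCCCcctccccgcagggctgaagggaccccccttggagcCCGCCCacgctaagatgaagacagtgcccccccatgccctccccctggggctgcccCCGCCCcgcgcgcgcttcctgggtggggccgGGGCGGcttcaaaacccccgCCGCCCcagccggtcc
Tgfb2: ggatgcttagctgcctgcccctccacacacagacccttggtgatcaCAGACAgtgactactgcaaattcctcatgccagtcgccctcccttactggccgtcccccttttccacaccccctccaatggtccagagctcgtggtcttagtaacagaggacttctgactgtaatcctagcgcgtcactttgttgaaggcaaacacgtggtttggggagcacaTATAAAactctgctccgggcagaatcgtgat
The Tgfb1 window was 75.2% G or C and held 5 Sp1 matches and no TATA match. In contrast, the Tgfb2 window was 53.6% G or C and held a TATA match at -31 and a Smad match at -204 from the gene start, and no Sp1 match. Of 32851 promoter windows of the same length, 32.7% held the Sp1 letters, 17.1% the Smad letters and 12.4% the TATA letters. The FoxO letters, found in 3.2% of windows, were in neither of the 2 windows. A match to such short letters is a description of the sequence only, and its absence says only that these letters are not in this window. Windows were matched for 7 of the 9 genes, but not for Tgfb3 or Tgfbr3, so the third ligand could not be shown.

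The log2 fold changes of the binding proteins were of both signs, with and without control mouse 2. Ltbp1, which carries latent TGF-β to the matrix in most tissues, is on chromosome 17 (75005568 to 75392512, plus strand). It had 59.5, 55.1 and 63.9 CPM in mAktDKO mice and 46.9, 53.0 and 62.1 CPM in control mice. The groups overlapped, with control mouse 4 above mAktDKO mice 1 and 2. Its log2 fold change was 0.14 with a standard error of 0.11 (edgeR adjusted p = 0.463), and 0.046 without control mouse 2 (adjusted p = 0.837). The 95% interval of the fold change was 0.923 to 1.31.

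Ltbp4 was by far the most abundant of the 9 transcripts. It binds TGF-β1 more weakly than Ltbp1 and Ltbp3 do and is needed to assemble elastic fibres, and a variant form of it is known as a modifier of muscular dystrophy in mice. It is on chromosome 7 (27305136 to 27337692, minus strand). Levels were 300, 266 and 266 CPM in mAktDKO mice and 289, 315 and 278 CPM in control mice, with the groups overlapping. The means were 277 ± 19.7 and 294 ± 19.0 CPM (SD, n = 3 each). Its log2 fold change was -0.085 (standard error 0.089, edgeR adjusted p = 0.577), and -0.10 without control mouse 2 (adjusted p = 0.599). The 95% interval of the fold change was 0.820 to 1.08. Of the 9 genes it varied least among the 6 mice, with a highest level 1.19 times the lowest.

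Ltbp3, a carrier of latent TGF-β whose loss is known for its effects on bone and teeth, is on chromosome 19 (5740904 to 5758532, plus strand). Its levels of 67.4, 77.0 and 64.9 CPM in mAktDKO mice lay inside the range of the control mice, which had 68.4, 64.3 and 82.3 CPM. The log2 fold change was -0.038 (standard error 0.11, edgeR adjusted p = 0.857), and -0.072 without control mouse 2 (adjusted p = 0.779). The 95% interval of the fold change was 0.818 to 1.16.

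Ltbp2 is the member of the family that does not bind latent TGF-β and is known as a fibrillin-associated matrix protein. It is on chromosome 12 (84783212 to 84876532, minus strand). It was the least abundant of the 9 and the most variable, with 6.21, 10.6 and 5.01 CPM in mAktDKO mice and 4.26, 1.46 and 12.9 CPM in control mice. The highest level was 8.86 times the lowest, and both extremes were control mice, at 171 counts in mouse 4 and 20 counts in mouse 3. The log2 fold change of 0.24 had a standard error of 0.60 (edgeR adjusted p = 0.828), and its sign turned when mAktDKO mouse 2 (-0.14) or control mouse 3 (-0.23) was left out. Without control mouse 4 it was 1.34 (adjusted p = 0.114), and without control mouse 2 it was 0.031 (adjusted p = 0.982). Its 95% interval of 0.465 to 3.00 for the fold change allows a change of either direction.

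mAktDKO mouse 2 and control mouse 4, the highest pair for Ltbp2, were also the highest pair for 17 of the 68 tested genes in the pathway lists described below (25.0%), against 5.18% of all tested genes. This tally was made after the values had been seen. By list, it was 2 of 16 carriers and scaffold genes, 5 of 16 activating genes, 4 of 18 receptors, co-receptors and Smads, and 6 of 18 target genes. Postn, Mmp9 and Tnc are given as examples with a wide margin. In other genes the margin was small, as for Smad2, with 27.4 CPM in mAktDKO mouse 2 and 26.3 CPM in control mouse 4. Its other mice had 24.2 to 25.1 CPM. Postn, encoding periostin, was highest in mAktDKO mouse 2 (394 CPM) and control mouse 4 (340 CPM), against 76.9 to 215 CPM in the other mice. Mmp9, encoding a secreted gelatinase, was at 10.6 CPM in mAktDKO mouse 2 and 12.2 CPM in control mouse 4, and at 1.24 to 2.79 CPM in the other mice. Tnc, encoding tenascin C, was at 136 CPM in mAktDKO mouse 2 and 169 CPM in control mouse 4, and at 38.8 to 86.7 CPM in the others. These same mice had the highest levels of Ltbp3. Thus the highest levels of Ltbp2 and Ltbp3 were found in a mouse of each genotype.

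The receptors had small differences in the same direction as the ligands. Tgfbr2, the kinase that binds ligand first, is on chromosome 9 (116084293 to 116175360, minus strand) and had 92.7, 99.6 and 83.4 CPM in mAktDKO mice and 72.9, 76.4 and 92.3 CPM in control mice. Control mouse 4 reached into the range of the mAktDKO mice. The log2 fold change was 0.19 (standard error 0.11, edgeR adjusted p = 0.306), and 0.12 without control mouse 2 (adjusted p = 0.563).

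Tgfbr3, encoding betaglycan, is on chromosome 5 (107106570 to 107289629, minus strand). It had 78.4, 83.1 and 82.1 CPM in mAktDKO mice and 70.7, 65.5 and 79.1 CPM in control mice. Only control mouse 4 overlapped with the mAktDKO mice, by less than 1 CPM at mAktDKO mouse 1. The log2 fold change was 0.18 (standard error 0.088, edgeR adjusted p = 0.242), and 0.17 without control mouse 2 (adjusted p = 0.366). The 95% interval of the log2 fold change was -0.020 to 0.38 for Tgfbr3 and -0.057 to 0.44 for Tgfbr2.

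**Figure D2:**
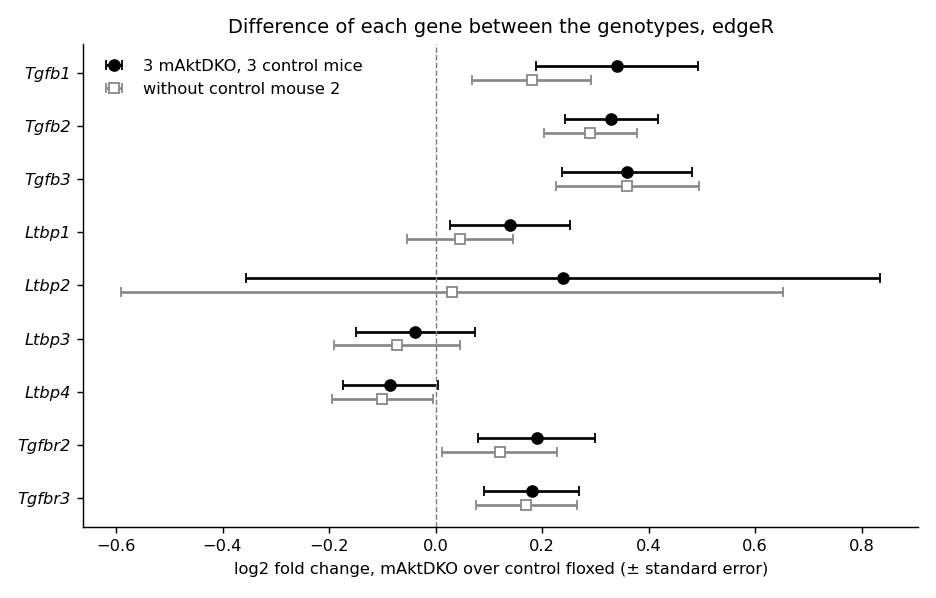
Log2 fold change of each gene in mAktDKO over control floxed mice (horizontal axis) from edgeR, with standard errors as bars, for all 6 mice (filled circles) and without control mouse 2 (open squares). The 3 ligands are at 0.33 to 0.36 with all mice, and leaving out control mouse 2 moves Tgfb1 most of the 3, to 0.18, while Ltbp2 has the widest error.

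To compare levels between genes, CPM were divided by the length of the longest coding transcript in kilobases (CPM per kb). Ltbp4 led with a mean of 53.1 over the 6 mice (range 49.4 to 58.5). Next came Ltbp3 at 13.6 (12.4 to 15.9), Tgfb3 at 13.6 (10.3 to 16.7), Tgfbr3 at 12.6 (10.8 to 13.7) and Tgfbr2 at 10.7 (9.0 to 12.3), and the ranges of these neighbours overlapped. Ltbp1 at 8.51 (7.03 to 9.58), Tgfb2 at 6.58 (5.45 to 7.80) and Tgfb1 at 5.46 (3.73 to 6.50) followed, each overlapping with the next. Ltbp2 came last at 0.997 CPM per kb (0.216 to 1.91), below the range of every other gene. With the merged length of all annotated exons in place of the transcript, Ltbp4 stayed first (44.2) and Ltbp2 last (0.824), but Ltbp3 moved to the fifth place (7.80), Ltbp1 (5.31) came after Tgfb2 (5.81), and Tgfb1 was at 2.36. The merged exons of Ltbp3, Ltbp1 and Tgfb1 are 9069, 10691 and 5042 bases long, against 5190, 6671 and 2175 bases for the transcript.

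**Figure D3:**
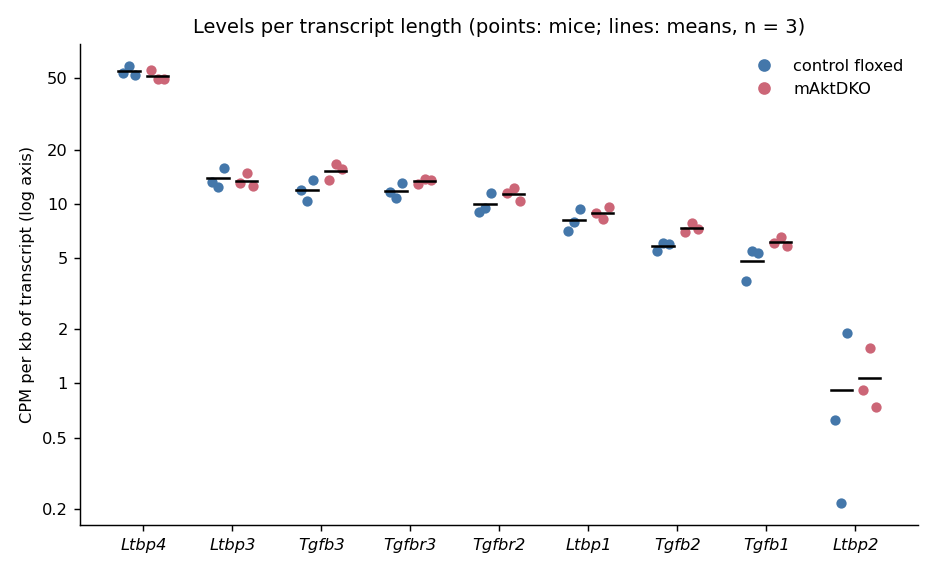
Level of each gene in CPM per kb of the longest coding transcript (vertical log axis), ordered by the mean over 6 mice, with each mouse as a point, control floxed mice in blue, mAktDKO mice in red, and the mean of 3 mice as a line. Ltbp4 is at 49.4 to 58.5 in every mouse, Ltbp2 at 0.216 to 1.91, and the other 7 genes lie between them.

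The mix of ligands was alike in both groups. Tgfb3 made up 53.1% ± 1.86 of the ligand transcripts per length in mAktDKO mice and 52.8% ± 4.87 in control mice (SD, n = 3 each). Tgfb2 made up 25.6% ± 0.605 and 25.9% ± 1.82, and Tgfb1 made up 21.3% ± 1.29 and 21.3% ± 3.68. Among the binding proteins, Ltbp4 took 68.7% ± 2.14 in mAktDKO mice and 70.5% ± 4.39 in control mice, with Ltbp3 near 18.0% and 17.8%. The groups overlapped for all of these shares. With the merged length of all exons, Tgfb1 made up 10.8% and 10.9% and Tgfb3 62.6% and 62.1% of the ligands in mAktDKO and control mice, so the likeness of the groups held but the mix depended on the length used.

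The amount of binding protein transcript relative to ligand transcript differed between the groups without overlap. The sum of the 3 ligands was 26.4, 31.0 and 28.7 CPM per kb in mAktDKO mice and 21.1, 21.7 and 24.9 CPM per kb in control mice. In contrast, the sum of the 4 binding proteins overlapped, at 78.5, 74.1 and 72.2 CPM per kb against 74.5, 79.1 and 78.8 CPM per kb. Ltbp1, Ltbp3 and Ltbp4, the family members that bind latent TGF-β, together gave 2.94, 2.34 and 2.49 transcripts per ligand transcript in mAktDKO mice and 3.50, 3.63 and 3.08 in control mice. For Ltbp1 and Ltbp3 alone, the ratio was 0.829, 0.745 and 0.770 in mAktDKO mice and 0.958, 0.937 and 1.01 in control mice. For both ratios all mAktDKO mice lay below all control mice, for the first by a narrow margin (2.94 in mAktDKO mouse 1, 3.08 in control mouse 4). A ratio within a library does not depend on the scaling between mice. The ratios were formed from the same values as the results above and were given no test. The ratio of Tgfbr3 to Tgfbr2 overlapped, with means of 1.18 ± 0.111 in mAktDKO mice and 1.19 ± 0.0868 in control mice (SD, n = 3 each).

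**Figure D4:**
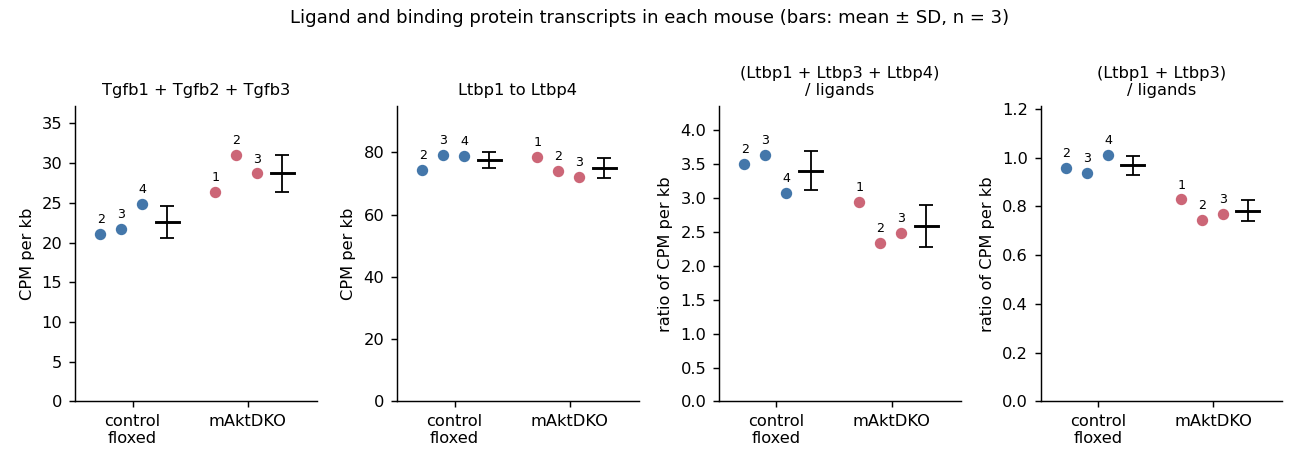
From left to right, the sum of the 3 ligands and of the 4 binding proteins in CPM per kb, and the ratios of (Ltbp1 + Ltbp3 + Ltbp4) and of (Ltbp1 + Ltbp3) to the ligands, for each mouse, with control floxed mice in blue, mAktDKO mice in red, and mean and SD (n = 3) beside the points; all axes start at 0. The ligand sums of all mAktDKO mice lie above, and both ratios below, those of all control mice, while the binding protein sums overlap.

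Other genes of the pathway were examined in 4 lists, which were chosen with earlier results of these data known. The genes of a list were measured in the same mice and can vary together. Counts of genes within a list are therefore not counts of independent genes, and they were given no test against the share of all tested genes. The list of carriers of the latent complex and of the matrix scaffold had 16 genes, all tested. None was called by edgeR. All 16 had a log2 fold change above 0, against 52.5% of all tested genes. Control mouse 2 was the lowest mouse for every gene of this list except Fmod, so the 16 signs share this mouse. For 9 of the 16 the groups did not overlap, all higher in mAktDKO mice, against 14.6% of all tested genes, and without control mouse 2 the count was again 9, against 19.2%. The median log2 fold change was 0.42, or 0.29 without control mouse 2, against 0.017 and 0.016 over all tested genes. Dcn, encoding decorin, a proteoglycan that binds TGF-β and collagen, had 587, 670 and 699 CPM in mAktDKO mice and 372, 469 and 477 CPM in control mice (log2 fold change 0.57, edgeR adjusted p = 0.0539). For Bgn, encoding the related biglycan, the log2 fold change was 0.63 (edgeR adjusted p = 0.0781). Fbn2, encoding a fibrillin to which the binding proteins attach, was at 20.4 ± 2.95 and 11.4 ± 4.07 CPM (SD, n = 3 each), a log2 fold change of 0.85 (edgeR adjusted p = 0.0805). Without control mouse 2 the log2 fold changes of Dcn, Bgn and Fbn2 were 0.46, 0.47 and 0.64. With DESeq2, 4 of the 16 were called at an adjusted p under 0.01, Dcn, Bgn and Fbn2 among them, and that test called 3.55% of the 9616 genes it gave an adjusted p.

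The list of genes that activate latent TGF-β had 16 tested genes, 0 of them called by edgeR. At an unadjusted p under 0.05, 3 were higher and 2 lower in mAktDKO mice, against 11.4% and 13.1% of all tested genes, and the median log2 fold change was 0.089, or 0.044 without control mouse 2. This median was unstable, at 0.17 and 0.25 without mAktDKO mice 1 and 3, 0.053 without mAktDKO mouse 2, and 0.14 and 0.23 without control mice 3 and 4. Thbs1, encoding thrombospondin 1, which activates latent TGF-β, had 158, 162 and 181 CPM in mAktDKO mice and 115, 85.3 and 119 CPM in control mice, a log2 fold change of 0.65 (edgeR adjusted p = 0.0506). DESeq2 called it, at an adjusted p of 0.000242, as the only gene of this list. That test called 3.55% of the genes to which it gave an adjusted p. Adamts1, encoding a secreted protease, was at 74.9 ± 4.86 and 56.7 ± 4.39 CPM (SD, n = 3 each; log2 fold change 0.40, edgeR adjusted p = 0.0587). Itgb6, encoding an integrin subunit that binds the latent complex, was at 63.8 ± 2.76 CPM in mAktDKO mice and 78.8 ± 6.01 CPM in control mice (SD, n = 3 each; log2 fold change -0.31, edgeR adjusted p = 0.0853). Of the 16 genes, 4 were higher and 1 lower in mAktDKO mice without overlap, against 14.6% and 16.6% of all tested genes. Without control mouse 2 the counts were 5 and 2, against 2471 and 2552 of the 12892 tested genes. With all mice, Thbs1, Adamts1 and Itgb6 were among the genes of this list without overlap. Without control mouse 2 their log2 fold changes were 0.71, 0.37 and -0.34.

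Of 18 tested genes in the list of other receptors, co-receptors and Smads, 0 were called, and 1 was higher and 2 were lower at an unadjusted p under 0.05 (edgeR), against 11.4% and 13.1% of all tested genes. The median log2 fold change was 0.012, or 0.032 without control mouse 2, and ran from -0.012 to 0.047 when each mouse was left out. Smad3, the receptor-activated Smad, was at 68.0 ± 3.00 and 81.0 ± 4.01 CPM (SD, n = 3 each; log2 fold change -0.25, edgeR adjusted p = 0.107). Tgfbr1, encoding the type I receptor, was at 62.9 ± 2.91 and 53.3 ± 4.55 CPM (SD, n = 3 each; log2 fold change 0.24, edgeR adjusted p = 0.149). For Smad6, an inhibitory Smad, it was -0.37 (edgeR adjusted p = 0.185). Without control mouse 2 the log2 fold changes of Smad3, Tgfbr1 and Smad6 were -0.29, 0.26 and -0.24.

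The list of known TGF-β target genes had 18 tested genes with 0 called by edgeR and 1, Sparc, called by DESeq2, which called 3.55% of the genes it gave an adjusted p. The log2 fold change was above 0 in 16 of 18, against 52.5% of all tested genes. At an unadjusted p under 0.05, 4 were higher and none lower, against 11.4% and 13.1% of all tested genes. The median log2 fold change was 0.35, or 0.21 without control mouse 2, against 0.017 and 0.016 over all tested genes. It was 0.60 without control mouse 4 and 0.24 without mAktDKO mouse 2. Lox, encoding an enzyme that crosslinks collagen and elastin, had 179, 199 and 218 CPM in mAktDKO mice and 69.8, 111 and 150 CPM in control mice (log2 fold change 0.85, edgeR adjusted p = 0.0806). Sparc, encoding a collagen-binding glycoprotein, had 2260, 2310 and 2470 CPM against 844, 1610 and 1660 CPM (log2 fold change 0.78, edgeR adjusted p = 0.0907). For Loxl2, encoding a relative of Lox, it was 0.66 (edgeR adjusted p = 0.114). In all 3 genes control mouse 2 was the lowest, and without it the log2 fold changes were 0.61, 0.52 and 0.41. The early targets Ccn1 and Ccn2, picked out after their values had been seen, both had a log2 fold change of 0.26 with overlapping groups. Their edgeR adjusted p-values were 0.242 and 0.408. Without control mouse 2 the log2 fold change of Ccn1 was 0.35, and its groups no longer overlapped (edgeR adjusted p = 0.164). That of Ccn2 was then 0.19, with overlapping groups (edgeR adjusted p = 0.636).

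Markers of the cell types that a whole muscle holds were read beside these results. The summed level of 6 markers of fibro-adipogenic progenitors, the stromal cells that make much of the muscle matrix, was 314 to 395 CPM in mAktDKO mice and 209 to 312 CPM in control mice. The sum of 6 fast myofibre genes was lower, at 99000 to 109000 CPM against 110000 to 119000 CPM. All tested markers had a log2 fold change above 0 in the progenitor, tenocyte, macrophage, satellite cell, adipocyte, Schwann cell, blood cell and slow myofibre lists, against 52.5% of all tested genes, as had 4 of 6 endothelial, 3 of 6 mural and 0 of 6 fast myofibre genes. The sums overlapped for markers of tenocytes (1230 to 1780 against 943 to 1270 CPM), macrophages (88.9 to 116 against 57.3 to 97.2 CPM), endothelial cells (442 to 520 against 374 to 485 CPM), mural cells (596 to 670 against 550 to 626 CPM), satellite cells (25.2 to 30.0 against 20.8 to 32.1 CPM), Schwann cells (380 to 491 against 311 to 395 CPM), adipocytes (51.8 to 157 against 40.6 to 88.3 CPM), blood cells (44.0 to 170 against 59.7 to 125 CPM) and slow myofibres (450 to 947 against 312 to 601 CPM). Control mouse 2 had the lowest sum of progenitor markers, and also of mural, macrophage, satellite cell, Schwann cell and slow myofibre markers. It had the lowest level of Tgfb1, Tgfb2, Ltbp1 and Tgfbr2 as well. Without this mouse the control mice had 309 to 312 CPM of the progenitor markers. No marker of these lists was at 0 in any mouse except Hbb-bs of the blood list. The markers of a list share the same mice, so the numbers of markers with a log2 fold change above 0 are not counts of independent genes. The part of these cell types in the results on the ligands, binding proteins and receptors was not tested.

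Ltbp4 and Tgfb1 lie on the same chromosome as Akt2, at 0.254 and 1.886 Mb from it, so the genes within 2 Mb of Akt2 were listed for comparison, a window chosen after values had been seen. Of 188 annotated genes, 111 were in the table and 65 were tested. None was called by edgeR and 2 by DESeq2, which called 3.55% of the genes it gave an adjusted p, and the median log2 fold change of the 65 was -0.12, against 0.017 over all tested genes. Without control mouse 2 the median of the window was -0.10. At an unadjusted p under 0.05, 2 of the 65 were higher and 13 lower in mAktDKO mice, against 11.4% and 13.1% of all tested genes. The groups did not overlap for 4 higher and 13 lower genes, against 14.6% and 16.6% of all tested genes. Without control mouse 2 they did not overlap for 8 higher and 15 lower genes, against 2471 and 2552 of the 12892 tested genes. Tgfb1, at 0.34, was among the 4 that were higher without overlap, and Ltbp4, at -0.085, was near the median of the window. Both groups carried the floxed Akt2 allele, and whether the position near Akt2 had a part in these values was not tested.

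**Figure D5:**
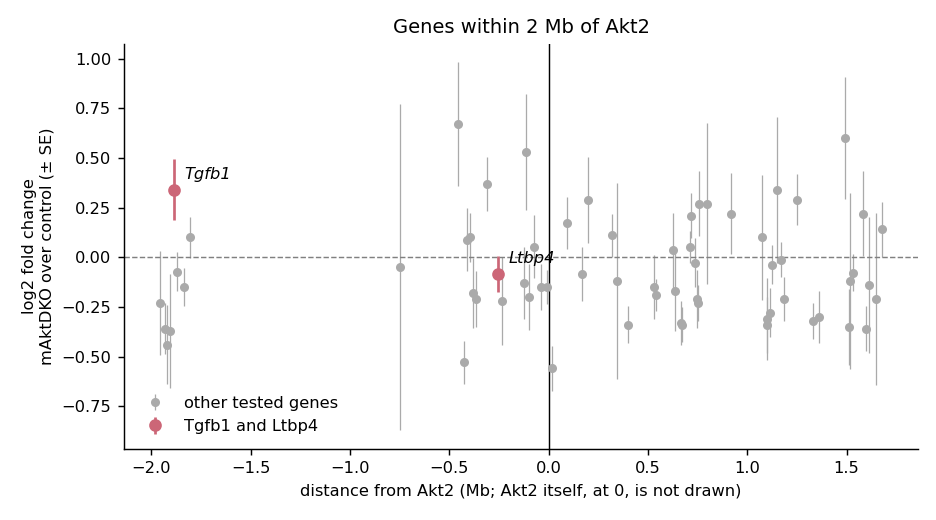
Log2 fold change in mAktDKO over control floxed mice (vertical axis, bars are standard errors) of the 65 tested genes within 2 Mb of Akt2, by their distance from it in Mb (horizontal axis), with Tgfb1 and Ltbp4 in red. Tgfb1 lies at 0.34 above most of its neighbours, Ltbp4 at -0.085, and the median of the window is -0.12.

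The genes whose levels ran most like each of the 9 across the 6 mice were looked up among 9454 genes with a mean of at least 5 CPM, by Pearson's r of log2 CPM, as a description over 6 mice that share the genotype difference and the low control mouse 2. Tgfb1 ran closest to Itih5 (r = 0.997), a secreted hyaluronan-binding protein, and Api5 (0.997). Tgfb2 ran closest to Cr1l (0.999) and Tcf12 (0.996), and Tgfb3 to Chd9 (0.991) and Scara3 (0.990). For the binding proteins the closest were Rab30 and Phtf1 for Ltbp1 (0.982 and 0.975), Dock5 and Mertk for Ltbp2 (0.986 and 0.984), Slc26a2 and Spp1 for Ltbp3 (0.982 and 0.977), and Notch4, an endothelial receptor, and Phospho2 for Ltbp4 (0.987 and 0.985). Tgfbr2 ran closest to Pde3a (0.989) and B3gnt2 (0.988), and Tgfbr3 to Nt5e (0.994) and Sept5 (0.990). The number of genes with an r above 0.9 differed widely between the members, from 28 of the 9454 for Ltbp3 to 818 for Tgfb1. Across the 9 genes, control mice 2 and 3 were the lowest mouse for 4 genes each, and mAktDKO mouse 2 was the highest for 5.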

How the data were processed

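Total RNA of EDL was depleted of ribosomal RNA, and the authors made strand-specific libraries and sequenced paired-end, 37 bp reads. According to the submitters' processing notes, reads were demultiplexed with bcl2fastq and mapped to mm10 with STAR 2.6.1b, and genes were counted with RSEM 1.3.1; the annotation is not given in the sources used here. The deposited values are estimated counts (expected counts) per gene, not scaled between mice. After rounding to whole numbers, low genes were removed (filterByExpr, minimum count 10) and the remaining 12892 were scaled by TMM and fitted with the quasi-likelihood model of edgeR 4.0.16 in R 4.3.3. Genes with an adjusted p (Benjamini-Hochberg) under 0.01 were called. The standard error of an estimate is the log2 fold change divided by the square root of F, the 95% interval uses the degrees of freedom of the fit, and log2 CPM used a prior count of 2. DESeq2 1.42.0 was an alternative. The steps were tested on simulated counts.

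The mAktDKO columns match the labelled samples by number. Control columns have the numbers 2 to 4 where the labels have 1 to 3, so these columns stand for the group. The labels do not say more of the mice, and p-values measure the spread between these samples. Besides the 9 members, Akt1 and Akt2, the rule named at most the 3 genes with the smallest p in each pathway list and the 2 genes most correlated with each member. The members and lists were chosen with earlier results of these data known. Symbols were matched to GENCODE vM21 for positions and lengths, and Ccn1 and Ccn2 are listed under older symbols in the table.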

Additional observations from a re-analysis of the deposited data

How the results depend on the processing

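None of the 9 genes was called under any alternative that gave an adjusted p; the smallest was 0.0573, for Tgfb2 with library totals. The number of genes called, 3 in the reported test, was 32 without the filter on low counts, 341 with DESeq2 and 152 at an adjusted p under 0.05. Leaving out each mouse gave 0 to 8, with 0 without each mAktDKO mouse (2441, 1871 and 2794 genes at an unadjusted p under 0.05, edgeR) and 8 without control mouse 2. Akt2 then had an adjusted p of 0.0165 to 0.0208 without a mAktDKO mouse. Library totals shifted the median change of all genes (log2) from 0.017 to 0.16, and Ltbp3 (0.10) and Ltbp4 (0.054) turned positive; relative to that median they were at -0.053 and -0.10 (an alternative chosen after seeing the data). When each mouse was left out, log2 fold changes ran from -0.23 to 1.34 for Ltbp2, from -0.12 to 0.070 for Ltbp3, from 0.18 to 0.43 for Tgfb1, 0.29 to 0.37 for Tgfb2, 0.26 to 0.46 for Tgfb3, 0.046 to 0.25 for Ltbp1, -0.15 to -0.034 for Ltbp4, 0.12 to 0.30 for Tgfbr2 and 0.12 to 0.25 for Tgfbr3. Library totals put the median of the activation list at 0.23 and of the receptor list at 0.15, against 0.089 and 0.012. The causes were not tested. Of the fits that left out a mouse, only that without control mouse 4 gave a positive value for Ltbp3. The lengths of merged exons were also chosen after seeing the data. At 20 counts in a mouse, Ltbp2 was the gene most limited by depth. No paired analysis was possible because columns of control mice carry the numbers 2 to 4 where the labels give 1 to 3.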

Other observations

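Hbb-bs, a gene of the adult β-globin cluster, was at 0 counts in all 3 control mice and at 370, 154 and 146 counts in mAktDKO mice 1 to 3, whereas Hba-a1, an α-globin gene, was found in every mouse at 23.7 to 132 CPM. The β-globin genes are near-identical copies, between which the estimated counts divide shared reads, so the level of this copy alone is uncertain. The β-globin cluster is on chromosome 7, as is Akt2. The labels give the strain C57BL/6J for both groups, and whether both carry the same β-globin alleles was not tested.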
